A study of Mus musculus with 12 samples.

Results

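The comparison described here asked which genes changed in wildtype osteoclasts, the multinucleated cells that resorb bone, when they were given supernatant from necrotic rather than viable osteocytes, the cells that live inside the bone matrix. Its fold changes rest on all libraries that the sample titles mark as wildtype (WT), 6 of the 12 in the series: 3 with viable and 3 with necrotic supernatant. Messenger RNA was sequenced from bulk cultures, and 14153 genes had enough counts to be tested. The other 6 libraries came from cells lacking Mincle (knockout, KO, on a C57BL/6 background), with the same pair of supernatants. Their response is given only where the WT response is set beside it. They are also part of the model that estimates the spread between libraries, and so of the standard errors and p-values below. With the 6 WT libraries alone 213 genes rose and 146 fell, against 681 and 637 with all 12.

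Per the labels, every culture was grown from mouse bone marrow derived monocytes (C57BL/6 mice for WT) in αMEM with 10% FCS, RANKL (10 ng/ml) together with M-CSF (20 ng/ml). Osteocyte supernatant, diluted 1:2, was added on day 1 and left for 24 h, and RNA was taken on day 3. Viable osteocytes served as the control, and the necrotic ones were made by serum starvation. No group with plain or starved medium is among the samples used here, so substances released by dying osteocytes, a change in serum content and the loss of factors made by viable osteocytes cannot be told apart. The labels do not state whether the 3 replicates of a group were different animals, different wells or repeats of 1 culture, and every p-value below therefore reflects the spread between libraries, which may be technical.

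Osteoclasts form when monocytes and macrophages receive M-CSF and RANKL, switch on the transcription factor NFATc1 and fuse. The mature cell seals off an area of bone, pumps protons and chloride into it through a vacuolar ATPase and a chloride-proton exchanger, and digests the matrix with cathepsin K and acid phosphatase. Macrophage-lineage cells also take up dead cells and sense their contents, and Mincle, the C-type lectin encoded by Clec4e, is one receptor known to bind material from dying cells. Culture in M-CSF and RANKL gives a mixture in which precursors and macrophages remain beside osteoclasts.

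The 3 WT viable libraries held 18599351, 16803180 and 49612055 counts and the 3 WT necrotic libraries 16701187, 18240653 and 24268667, so WT viable 3 was the deepest by far. All 10 osteoclast markers were detected and rose, and together they held 17500 to 17900 counts-per-million (CPM) with viable and 22100 to 23400 CPM with necrotic supernatant. Markers of macrophages (13 genes) summed to 21400 to 24300 and 25900 to 26400 CPM, and those of neutrophils and their precursors to 1580 to 1660 and 1420 to 1650 CPM. Dendritic cell markers summed to 46.7 to 50.3 and 37.5 to 40.4 CPM, stromal and osteoblast markers to 62.9 to 96.5 and 33.1 to 50.9 CPM, and lymphoid markers to 63.3 to 70.5 and 46.6 to 64.0 CPM. Of the 10 osteocyte markers, Sost, Mepe, Fgf23 and Dkk1 had no count in any of the 6 libraries. Over all 6, Tnfsf11 had 3 counts, Dmp1 4, Phex 36, Tnfrsf11b 133, Pdpn 818 and Gja1 2290. Together the osteocyte markers summed to 19.5 to 25.9 CPM with viable and 19.2 to 24.3 CPM with necrotic supernatant. In bulk RNA, more cells of a type and more RNA per cell cannot be told apart, which holds for every result below.

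Necrotic supernatant changed many genes by a little. By edgeR's quasi-likelihood test with Benjamini-Hochberg adjustment over all 14153 genes, 681 genes (4.81%) rose and 637 (4.5%) fell at an adjusted p under 0.05, together 9.31% of those tested. Of the 1318 changed genes, 543 moved by less than 1.2-fold, 611 by 1.2-fold to 1.5-fold and 164 by more than 1.5-fold, of which 47 rose and 117 fell. In 669 of the rises (4.73%) and 574 of the falls (4.06%) no necrotic library overlapped a viable one. Genes named below for a leading p-value, fold change or CPM difference were taken from these. For such genes, and for any other gene that passed, a statement of no overlap is a description and not further support. Over all genes tested, 12.4% lay higher and 12% lower without overlap. At least 2-fold were 11 rises (0.0777%) and 43 falls (0.304%). The median log2 fold change over all genes was -0.006, with 48.3% of genes above 0. The scaling of the libraries itself places this centre near 0, so a shift shared by all genes could not be seen.

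**Figure D1:**
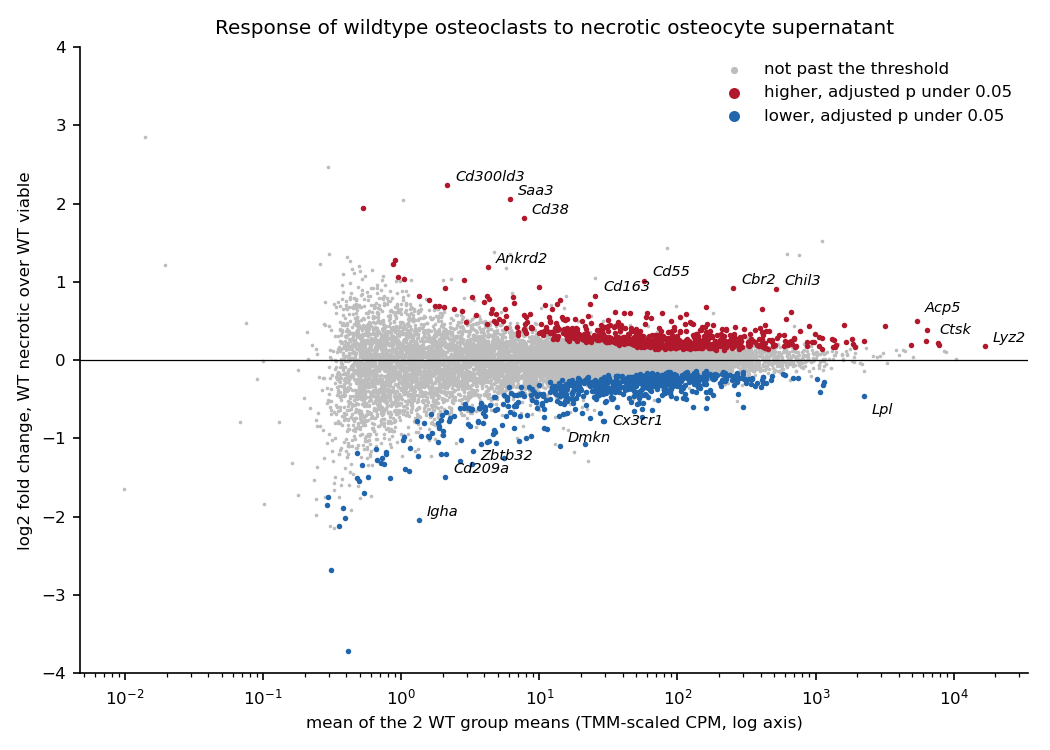
Each point is 1 of the 14153 genes, with the mean of the WT viable and WT necrotic levels on the x axis (CPM, log axis) and the log2 fold change, necrotic over viable, on the y axis; red points rose, blue points fell and grey points did not pass an adjusted p of 0.05. The red points reach far to the right, to Acp5, Ctsk and Lyz2, whereas the large changes at low levels are mostly falls; 1 gene lies outside the y range.

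The share of genes that rose was higher among genes with higher CPM, which is not corrected for transcript length. Of 1656 genes under 1 CPM 4 rose (0.24%), of 3495 at 1 to 10 CPM 48 (1.37%), of 6783 at 10 to 100 CPM 341 (5.03%), of 2127 at 100 to 1000 CPM 265 (12.46%) and of 92 over 1000 CPM 23 (25.0%). The shares that fell in the same order were 1.27%, 3.0%, 5.57%, 6.02% and 5.43%. The genes that rose took 14.61% to 15.36% of all CPM in the viable and 17.19% to 17.84% in the necrotic libraries. The genes that fell went from 5.334% to 5.921% down to 4.373% to 4.744%. These shares describe the genes chosen by the test and are not a further test of it.

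Counts of changed genes depended on single libraries. Leaving out WT viable 1 gave 939 rises and 1076 falls, leaving out WT viable 2 gave 209 and 176, WT viable 3 gave 373 and 230, and WT necrotic 2 gave 303 and 225. In all 6 fits that each left out 1 WT library, 189 of the 681 rises and 138 of the 637 falls passed. The named genes below are reported with this in mind, and ± gives the standard error of a log2 fold change with 3 libraries in each group.

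Enzymes of bone resorption were among the rising transcripts. Of 18 resorption enzymes tested, 8 rose and 1 fell, with a median log2 fold change of 0.149 against -0.006 over all genes. The count of rises was 5 with WT viable 2 left out. The counts of this and every list below stand beside the 4.81% of all genes that rose and the 4.5% that fell. Those shares are not matched for level: of genes at 100 to 1000 CPM 12.46% rose, and of those over 1000 CPM 25.0%. A share above 4.81% in a list of genes with high CPM is therefore not by itself an excess. Acp5 (chr9:22126727-22135711, minus strand), the tartrate-resistant acid phosphatase that is the classic osteoclast stain, stood at 4660, 4280 and 4430 CPM with viable and 6260, 6590 and 6130 CPM with necrotic supernatant (log2 fold change 0.51 ± 0.04, adjusted p = 1.25e-05). The lowest necrotic library lay well above the highest viable one. Ctsk (chr3:95499256-95509362, plus strand), cathepsin K, which cleaves bone collagen, was at 5570, 5420 and 5650 CPM with viable and 7900, 7190 and 6700 CPM with necrotic supernatant (log2 fold change 0.39 ± 0.05, adjusted p = 0.000603), again without overlap. Mmp9 rose from 5700, 5900 and 5590 to 6840, 6820 and 6750 CPM (log2 fold change 0.25 ± 0.03, adjusted p = 0.00081), and Mmp14, the membrane-bound collagenase, rose by 0.33 ± 0.05 log2 units. Car2, the carbonic anhydrase that supplies protons, rose from 72.8, 72.1 and 77.3 to 96.2, 114 and 106 CPM (log2 fold change 0.51 ± 0.08, adjusted p = 0.00151). Against them, Adam8, a surface metalloprotease, was lower in every necrotic library, at 379, 421 and 416 CPM before and 325, 298 and 343 CPM after (log2 fold change -0.33 ± 0.06, adjusted p = 0.00339). Acp5, Ctsk, Mmp9, Mmp14, Car2 and Adam8 passed in every fit with 1 WT library left out.

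The Acp5 promoter is shown because Acp5 had one of the smallest p-values of all rising genes and because MITF, a transcription factor of osteoclasts and pigment cells, is known to act through an M box there. The window runs from 250 bases before to 50 bases after the RefSeq start site (GRCm38.p6, chr9:22130549-22130848, minus strand). The gene has 3 start sites in the table, and the windows of the other two did not hold the M box letters on either strand. The M box is in capitals, written here on the opposite strand to its usual letters TCATGTG and starting at base 161.
Acp5: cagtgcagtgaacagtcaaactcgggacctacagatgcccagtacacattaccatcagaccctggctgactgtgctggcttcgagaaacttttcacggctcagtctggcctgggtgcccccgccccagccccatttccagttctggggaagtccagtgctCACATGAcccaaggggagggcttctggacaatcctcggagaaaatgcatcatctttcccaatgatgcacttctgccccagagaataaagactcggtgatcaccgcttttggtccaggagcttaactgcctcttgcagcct
On either strand, TCATGTG was found in the promoter window of 3 of the 14 resorption enzymes with a promoter in the table (21.4%), of 25 of 519 genes that rose (4.82%) and of 281 of 10156 genes tested (2.77%). Over the gene lists the share went from 0.0% (osteoclast fusion) to 23.8% (inhibitory and paired receptors). A match says only that these letters are in the window.

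Most genes of acid secretion rose: of 22 genes of the proton pump and chloride exchange, 16 rose and the other 6 did not pass the test, with a median log2 fold change of 0.201. The count of rises was 7 with WT viable 2 left out and 9 with WT viable 3 or WT necrotic 2 left out, and 7 of the 16 passed in all 6 leave-one-out fits. Atp6v1e1, a stalk subunit of the vacuolar ATPase, stood at 373, 348 and 355 CPM with viable and 465, 475 and 436 CPM with necrotic supernatant (log2 fold change 0.35 ± 0.05, adjusted p = 0.000531). Atp6v0d2, the membrane-domain subunit that marks osteoclasts, rose from 670, 654 and 699 to 827, 907 and 878 CPM (log2 fold change 0.37 ± 0.05, adjusted p = 0.000841). In both genes all 3 necrotic libraries lay above all viable ones. Smaller rises were measured for the pump subunits Atp6v1c1 (0.27 ± 0.04 log2 units) and Atp6v1d (0.27 ± 0.05 log2 units) and for Ostm1 (0.22 ± 0.04 log2 units), the partner of the chloride-proton exchanger. Slc9b2, a sodium-proton exchanger of osteoclasts, rose from 371, 355 and 411 to 503, 486 and 489 CPM (log2 fold change 0.38 ± 0.06, adjusted p = 0.00119). Atp6v1e1, Atp6v0d2, Atp6v1c1, Atp6v1d, Ostm1 and Slc9b2 passed in every fit with 1 WT library left out.

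Fusion genes rose in part. Of 14 fusion genes, 4 rose (28.6%, against 4.81% of all genes) and 1 fell (7.1%, against 4.5%). The falls were 0 to 1 with 1 WT library left out. Of 15 osteoclast surface receptors 3 rose (20.0%). The count was 2 with WT viable 2 left out and 5 with WT necrotic 3 left out. The medians of the fusion and receptor lists were 0.064 and 0.068. Ocstamp (chr2:165393760-165400405, minus strand), which encodes a membrane protein required for osteoclasts to fuse, was at 134, 132 and 146 CPM with viable and 180, 191 and 199 CPM with necrotic supernatant (log2 fold change 0.46 ± 0.05, adjusted p = 0.000142). Its relative Dcstamp went from 128, 118 and 140 to 160, 172 and 185 CPM (log2 fold change 0.42 ± 0.07, adjusted p = 0.00252), with no overlap for either gene. Calcr, the calcitonin receptor and a late osteoclast marker, had the largest log2 fold change of these, from 88.5, 86 and 101 to 128, 144 and 145 CPM (log2 fold change 0.59 ± 0.06, adjusted p = 8.5e-05). Oscar, a collagen-binding costimulatory receptor, rose by 0.31 ± 0.05 log2 units and Itgb3, the beta 3 integrin chain, by 0.26 ± 0.06 log2 units. Cd47, the "don't eat me" ligand of SIRP alpha that also takes part in fusion, fell by 0.19 on the log2 scale, from 165, 178 and 181 to 156, 149 and 154 CPM. Csf1r, the M-CSF receptor, did not pass the test (0.16 ± 0.05 log2 units, adjusted p = 0.0522). Ocstamp, Dcstamp, Calcr and Oscar passed in every fit with 1 WT library left out. Itgb3 did not pass without WT viable 2 (adjusted p = 0.0948). Cd47 did not pass without WT viable 2, WT viable 3 or WT necrotic 2 (adjusted p 0.118 to 0.122).

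Among 26 transcription factors that drive osteoclasts, 3 rose (11.5%, against 4.81% of all genes; 1 with WT viable 3 left out) and 1 fell (2 with WT viable 1 left out; median 0.091), and among 16 tested repressors 1 rose and 2 fell (12.5%, against 4.5% of all genes; 1 to 2 falls with 1 WT library left out). Tfec, a relative of MITF, rose from 71.9, 66 and 69.3 to 85.5, 91.5 and 79.1 CPM (log2 fold change 0.30 ± 0.05, adjusted p = 0.00436). Nfatc1, the master regulator, was at 281, 325 and 295 CPM with viable and 348, 359 and 350 CPM with necrotic supernatant (log2 fold change 0.23 ± 0.05, adjusted p = 0.0156), a shift of under 1.2-fold without overlap. Jdp2, an AP-1 family member needed for osteoclast formation, rose by 0.27 ± 0.06 log2 units. Pparg fell from 17.4, 17.3 and 16 to 12.2, 13 and 11.9 CPM (log2 fold change -0.44 ± 0.09, adjusted p = 0.00759), and so did Klf4, a macrophage factor that restrains osteoclast formation (34.3, 37 and 33.3 to 28, 24.8 and 25.1 CPM, log2 fold change -0.42 ± 0.07, adjusted p = 0.00191). Rbpj, the DNA-binding protein of Notch signalling and a brake on osteoclast formation, fell by 0.24 on the log2 scale. The repressor that rose was Tsc22d3 (log2 fold change 0.68 ± 0.07, adjusted p = 8.27e-05), described below with the glucocorticoid-responsive genes. Its change was the largest in the repressor list. Tfec, Pparg and Klf4 passed in every fit with 1 WT library left out. Nfatc1 did not pass without WT viable 3 or WT necrotic 2 (adjusted p 0.0608 to 0.0636). Jdp2 and Rbpj did not pass without WT viable 2, WT viable 3, WT necrotic 1 or WT necrotic 2 (adjusted p 0.0534 to 0.137).

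**Figure D2:**
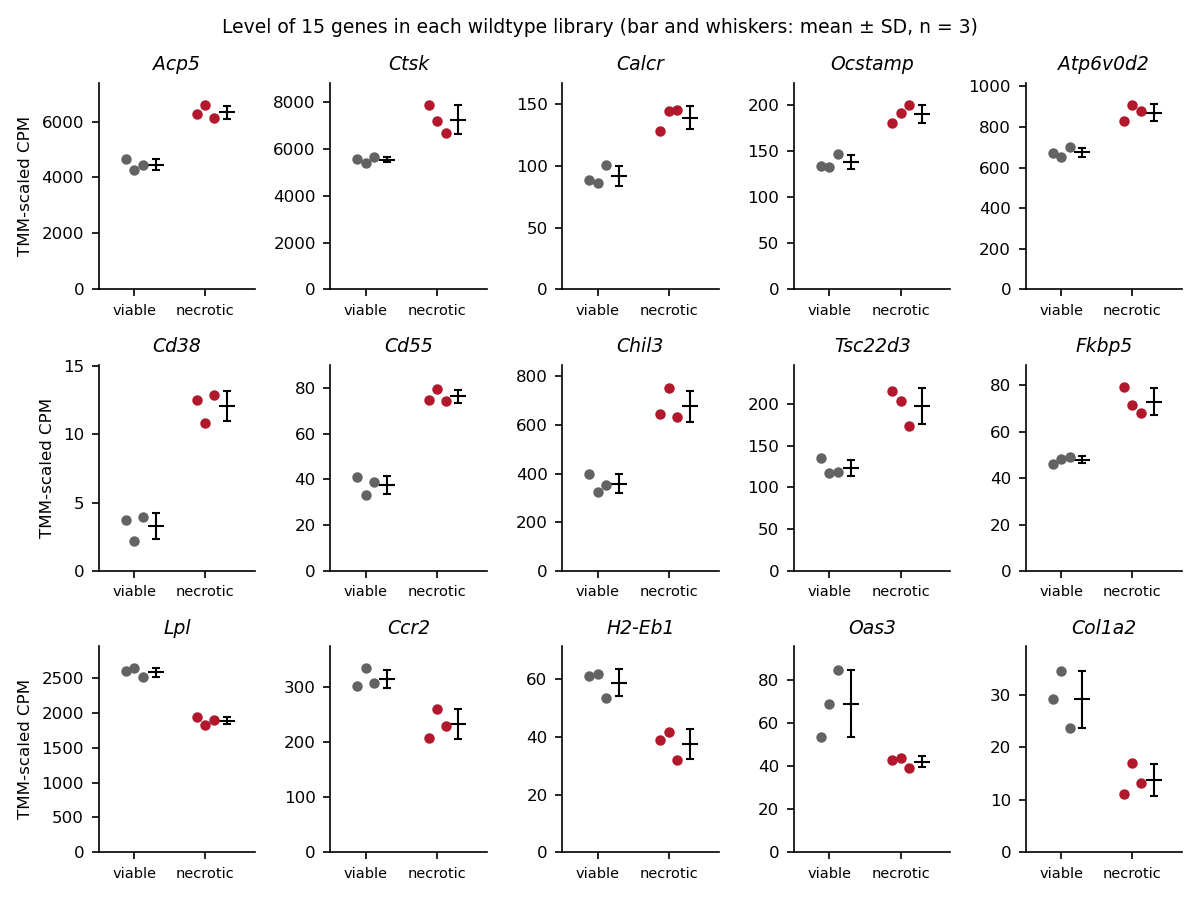
Each panel gives 1 gene, with a dot for each of the 6 WT libraries (CPM, axis from 0) and the mean ± SD of the 3 libraries of each group. The osteoclast genes Acp5, Ctsk, Calcr, Ocstamp and Atp6v0d2 sit higher in all 3 necrotic libraries, and Oas3 is spread most among the viable ones.

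Of the cytoskeleton and adhesion genes that build the sealing zone, 6 of 30 podosome and actin regulators rose (20.0%) and 1 fell (3.3%). Among 32 integrins and adhesion genes 7 rose (21.9%) and 2 fell (6.2%), against 4.81% and 4.5% of all genes. The kinase Src, without which osteoclasts do not form a ruffled border, went from 134, 145 and 147 to 179, 179 and 189 CPM (log2 fold change 0.36 ± 0.05, adjusted p = 0.00149). Ankrd2, a muscle ankyrin repeat protein, had few counts but one of the largest rises, from 2.74, 2.51 and 2.49 to 5.62, 5.24 and 6.67 CPM (log2 fold change 1.19 ± 0.16, adjusted p = 0.00049). Itga9, the alpha 9 integrin chain, rose from 9.55, 8.99 and 11.6 to 15.7, 17.6 and 17.1 CPM (log2 fold change 0.72 ± 0.11, adjusted p = 0.00136). None of these 3 genes overlapped between the groups. Tmod1, which caps actin filaments, rose by 0.75 ± 0.14 log2 units, Myo10 by 0.24 ± 0.05 log2 units and Lims2 by 1.02 ± 0.18 log2 units, whereas Coro1a fell by 0.21. The count of rises among integrins was 3 with WT viable 2 left out and 4 with WT viable 3 left out, and with 1 WT library left out the falls were 0 to 2 in each of the podosome and integrin lists. Src, Ankrd2, Itga9, Tmod1, Myo10 and Lims2 passed in every fit with 1 WT library left out. Coro1a did not pass without WT viable 2 or WT necrotic 2 (adjusted p 0.0839 to 0.0856).

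Lysosomal genes rose beyond the secreted enzymes of bone resorption: 15 of 38 lysosomal hydrolases and membrane proteins rose and 2 fell, with a median of 0.127. The count of rises was 4 with WT viable 2 left out, 8 with WT viable 3 left out and 7 with WT necrotic 2 left out, and that of falls 1 to 2 with 1 WT library left out. Glb1, the lysosomal beta-galactosidase, was at 232, 216 and 236 CPM with viable and 268, 302 and 295 CPM with necrotic supernatant (log2 fold change 0.34 ± 0.05, adjusted p = 0.00164). Smpd1, acid sphingomyelinase, rose from 75.2, 76.4 and 78.3 to 87.8, 95.9 and 95.1 CPM (log2 fold change 0.28 ± 0.04, adjusted p = 0.002), and Hexa, a beta-hexosaminidase subunit, by 0.27 ± 0.05 log2 units. Lipa, the acid lipase that frees cholesterol, went the other way, from 1110, 1120 and 1110 to 944, 927 and 948 CPM (log2 fold change -0.25 ± 0.05, adjusted p = 0.00797). The cathepsins Ctsb and Ctsd, counted above among the resorption enzymes and not in the lysosomal list, were among the genes with the largest gain in CPM. Ctsb went from 7340, 6650 and 7270 to 8330, 8450 and 7910 CPM (log2 fold change 0.22 ± 0.05, adjusted p = 0.0108), and Ctsd rose by 0.20 ± 0.05 log2 units. The letters CACGTG, the E box known from many lysosomal promoters, were in the windows of 11 of 30 of these lysosomal genes (36.7%) and 5 of 16 of the proton pump list (31.2%). They were in 1174 of 10156 genes tested (11.6%) and in 59 of 519 genes that rose (11.4%). Among lists without a rise the share went from 0.0% (interferon signalling) to 30.0% (p53 targets and cell death), so a high share was not particular to rising lists. Glb1, Smpd1, Hexa and Lipa passed in every fit with 1 WT library left out. Ctsb did not pass without WT viable 2 or WT necrotic 2 (adjusted p 0.0561 to 0.073). Ctsd did not pass without WT viable 2, WT viable 3 or WT necrotic 2 (adjusted p 0.0545 to 0.101).

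**Figure D3:**
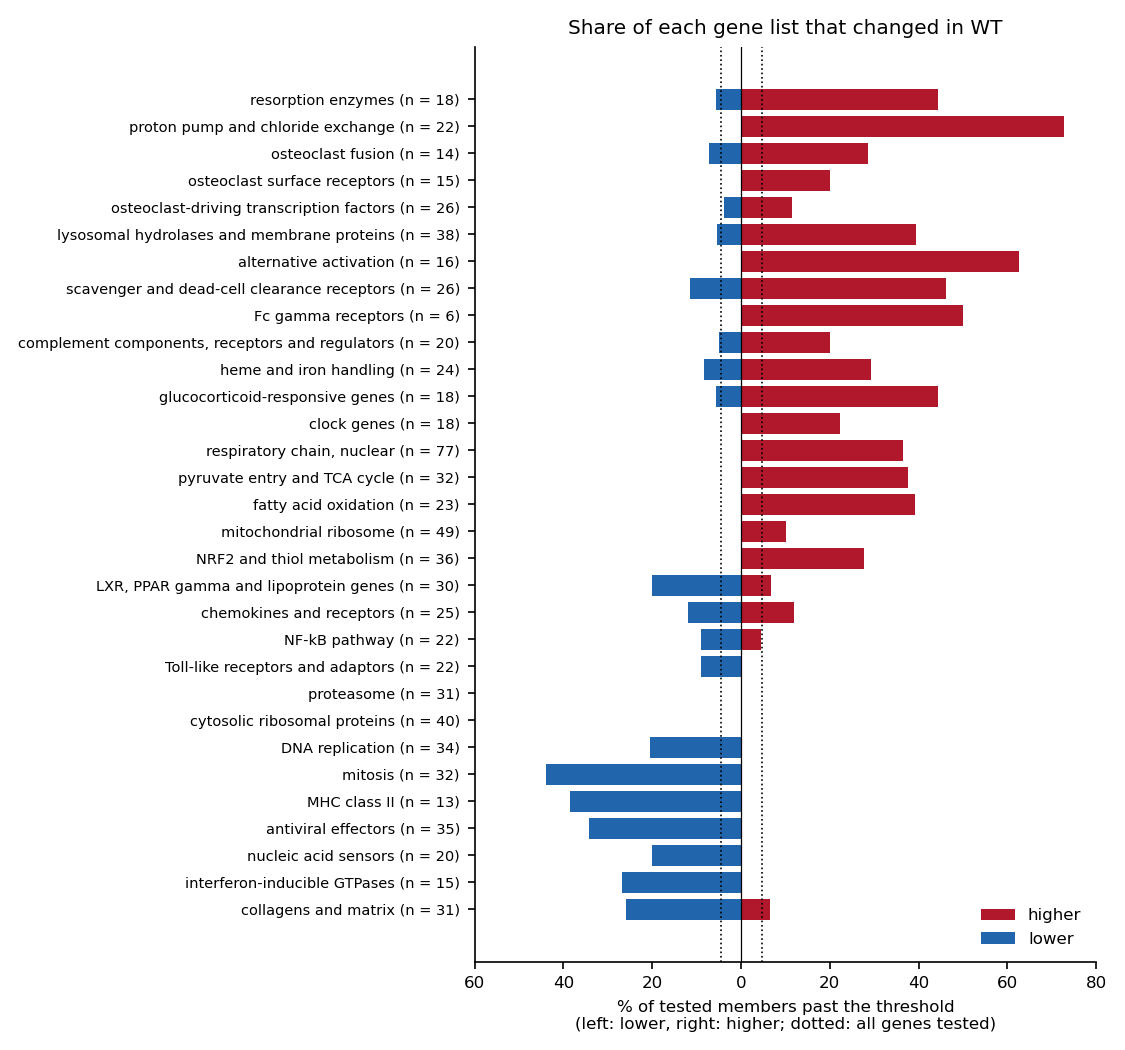
Bars give, for 31 gene lists, the percentage of tested members that rose (right, red) or fell (left, blue) at an adjusted p under 0.05, with the number tested in brackets; the dotted lines mark the 4.81% and 4.5% of all genes that rose and fell. The proton pump list has the longest red bar, with 16 of 22 members, and mitosis the longest blue bar, with 14 of 32.

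Beside the resorption programme, the gene with the largest fold rise among those with a small p was Cd38 (chr5:43868553-43912375, plus strand), an NAD-consuming surface enzyme. Its levels were 3.7, 2.22 and 3.95 CPM with viable and 12.5, 10.8 and 12.9 CPM with necrotic supernatant (log2 fold change 1.82 ± 0.15, adjusted p = 1.25e-05), more than 2-fold apart between the nearest libraries. Its neighbour in function, Bst1, which makes cyclic ADP-ribose, rose by 0.22 ± 0.06 log2 units, and Nmnat3, an NAD-synthesising enzyme of mitochondria, by 0.23 ± 0.06 log2 units. These 3 rises were the changes among the 23 genes of NAD metabolism tested, and the count was 1 with WT viable 2, WT viable 3 or WT necrotic 2 left out. Cd55 (chr1:130439027-130462744, minus strand), the decay-accelerating factor that shields cells from complement, rose from 40.9, 33 and 38.9 to 74.9, 79.7 and 74.5 CPM (log2 fold change 1.02 ± 0.09, adjusted p = 1.25e-05). Cd38 and Cd55 passed in every fit with 1 WT library left out. Bst1 did not pass without WT viable 2, WT viable 3, WT necrotic 1 or WT necrotic 2 (adjusted p 0.0652 to 0.147). Nmnat3 did not pass without WT viable 2, WT viable 3, WT necrotic 2 or WT necrotic 3 (adjusted p 0.0773 to 0.141).

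Complement component C1q, which binds dying cells and immune complexes, rose in all 3 of its chains. C1qa stood at 354, 275 and 332 CPM with viable and 544, 506 and 460 CPM with necrotic supernatant (log2 fold change 0.65 ± 0.08, adjusted p = 0.000359). C1qb went from 839, 683 and 776 to 1110, 1060 and 930 CPM (log2 fold change 0.43 ± 0.08, adjusted p = 0.00382) and C1qc from 575, 436 and 502 to 794, 701 and 686 CPM (log2 fold change 0.53 ± 0.08, adjusted p = 0.00151). WT viable 2 had the lowest level of each chain, and no chain overlapped between groups. In the whole complement list 4 of 20 rose (20.0%, against 4.81% of all genes) and 1 fell (5.0%, against 4.5%). The fall was that of Itgax, the alpha chain of complement receptor 4 (log2 fold change -0.34 ± 0.08, adjusted p = 0.0195). C1qa, C1qb and C1qc passed in every fit with 1 WT library left out. Itgax did not pass without WT viable 2, WT viable 3 or WT necrotic 1 (adjusted p 0.0557 to 0.0907).

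Most genes of alternatively activated and resident macrophages rose. Of 16 tested, 10 rose and the other 6 did not pass, with a median of 0.320, and 7 of the 10 passed in all 6 leave-one-out fits. Of those 6, 1 was lower at an unadjusted p under 0.05 by edgeR (log2 fold change -0.56). Chil3, a secreted chitinase-like protein (Ym1), was at 399, 323 and 355 CPM with viable and 644, 750 and 634 CPM with necrotic supernatant (log2 fold change 0.91 ± 0.08, adjusted p = 1.25e-05). Cbr2, a carbonyl reductase, was at 197, 155 and 172 CPM with viable and 313, 359 and 320 CPM with necrotic supernatant (log2 fold change 0.92 ± 0.07, adjusted p = 1.25e-05). The haemoglobin scavenger receptor Cd163 rose from 18.6, 16 and 19.5 to 33.5, 32.4 and 30.9 CPM (log2 fold change 0.82 ± 0.08, adjusted p = 6.05e-05). In these 3 genes the lowest necrotic library was more than 1.5 times the highest viable one. F13a1, a transglutaminase subunit of macrophages, rose by 0.62 ± 0.07 log2 units, the folate receptor Folr2 by 0.31 ± 0.05 log2 units and the lectin Clec10a by 0.39 ± 0.07 log2 units. Macrophage markers as a whole, of which 8 of 13 rose and 1 fell, also summed higher with necrotic supernatant (21400 to 24300 against 25900 to 26400 CPM), and the part of this shift in the result was not tested. Chil3, Cbr2, Cd163, F13a1, Folr2 and Clec10a passed in every fit with 1 WT library left out.

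Receptors for dead cells and debris rose in part: 12 of 26 scavenger and dead-cell clearance genes rose and 3 fell (median 0.149). The count of rises was 7 with WT viable 2 left out, and the count of falls was 0 with WT viable 2 left out and 1 with WT viable 3 or WT necrotic 2 left out. Scarf1, a scavenger receptor that binds C1q on dying cells, rose from 50, 48.2 and 48 to 66.3, 69.4 and 65.2 CPM (log2 fold change 0.46 ± 0.05, adjusted p = 6.05e-05). Gas6, the bridge between phosphatidylserine and the TAM receptors, rose from 288, 241 and 258 to 355, 373 and 311 CPM (log2 fold change 0.40 ± 0.07, adjusted p = 0.00322), and Mertk, a TAM receptor, from 84.1, 76.1 and 87.2 to 101, 101 and 105 CPM (log2 fold change 0.31 ± 0.06, adjusted p = 0.0056). All 3 lay higher in every necrotic library. Axl, the other TAM receptor with a change, fell from 10.8, 10.8 and 12 to 6.61, 8.7 and 7.96 CPM (log2 fold change -0.54 ± 0.14, adjusted p = 0.0237). Cd68, the lysosomal glycoprotein used as a macrophage stain, rose by 0.28 ± 0.04 log2 units, and Itgb5, the beta 5 integrin chain used in engulfment, by 0.25 ± 0.04 log2 units. Lrp1, an endocytic receptor with one of the largest losses in CPM, fell from 1150, 1360 and 1240 to 1020, 911 and 1080 CPM (log2 fold change -0.32 ± 0.07, adjusted p = 0.0105). Scarf1, Gas6, Mertk, Cd68 and Itgb5 passed in every fit with 1 WT library left out. Axl did not pass without WT viable 2, WT viable 3 or WT necrotic 1 (adjusted p 0.0648 to 0.102). Lrp1 did not pass without WT viable 2 or WT necrotic 2 (adjusted p 0.0577 to 0.0713).

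All 6 Fc gamma receptor genes of the list were tested, and 3 rose (median 0.242). Fcgr3 was at 385, 337 and 361 CPM with viable and 473, 539 and 469 CPM with necrotic supernatant (log2 fold change 0.45 ± 0.06, adjusted p = 0.000841), Fcgrt, the recycling receptor for IgG, rose by 0.46 ± 0.07 log2 units, and the inhibitory Fcgr2b by 0.27 ± 0.05 log2 units. Fcer1g, the signalling chain of Fcgr3, did not pass the test (0.14 ± 0.06 log2 units, adjusted p = 0.166). Of the 27 tested genes of ITAM and calcium signalling, which couples such receptors to NFATc1, 4 rose (14.8%) and 3 fell (11.1%). Over all genes 4.81% rose and 4.5% fell. There were 2 rises and 1 fall when WT viable 2 was left out. Without WT viable 3 and without WT necrotic 2 there was 1 fall each. The kinase Lyn rose from 169, 170 and 178 to 199, 203 and 212 CPM (log2 fold change 0.25 ± 0.04, adjusted p = 0.00361), and Prkcd, protein kinase C delta, fell from 413, 418 and 406 to 343, 328 and 341 CPM (log2 fold change -0.29 ± 0.04, adjusted p = 0.00149). Fcgr3, Fcgrt, Fcgr2b, Lyn and Prkcd passed in every fit with 1 WT library left out.

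Of the heme and iron genes tested, 7 of 24 rose and 2 fell; the count of rises was 4 with WT viable 2, WT viable 3 or WT necrotic 2 left out, and the falls were 1 to 2 in these fits. Hmox1, the heme oxygenase induced by oxidants and heme, was at 367, 315 and 342 CPM with viable and 434, 466 and 457 CPM with necrotic supernatant (log2 fold change 0.41 ± 0.06, adjusted p = 0.000942). Spic, the transcription factor of iron-recycling macrophages, rose from 17.1, 16.4 and 16.9 to 21, 26.9 and 23.2 CPM (log2 fold change 0.50 ± 0.09, adjusted p = 0.00301), and Slc40a1, the iron exporter ferroportin, from 193, 182 and 197 to 225, 245 and 229 CPM (log2 fold change 0.29 ± 0.06, adjusted p = 0.00703). Bach1, the heme-sensing repressor of Hmox1, fell from 160, 175 and 184 to 139, 138 and 153 CPM (log2 fold change -0.27 ± 0.05, adjusted p = 0.00747). No group of these 4 genes overlapped the other. Hmox1, Spic, Slc40a1 and Bach1 passed in every fit with 1 WT library left out.

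Many glucocorticoid-responsive genes rose: 8 of 18 were higher and 1 fell (median 0.234). Their count of rises was 4 with WT viable 2 left out and 5 with WT necrotic 2 left out, and the falls were 0 to 2 in these fits. Tsc22d3 (chrX:140539528-140600659), the glucocorticoid-induced leucine zipper, was at 135, 117 and 118 CPM with viable and 216, 204 and 174 CPM with necrotic supernatant (log2 fold change 0.68 ± 0.07, adjusted p = 8.27e-05). Fkbp5, a chaperone that damps the glucocorticoid receptor, went from 46.3, 48.3 and 49.2 to 79.3, 71.5 and 68.1 CPM (log2 fold change 0.60 ± 0.06, adjusted p = 8.27e-05). The period gene Per1 rose from 26.8, 24.3 and 23.7 to 33.9, 32.5 and 29.8 CPM (log2 fold change 0.37 ± 0.07, adjusted p = 0.00492). All 3 were higher in each necrotic library. Cd163, described above, is also a member of this list. Sgk1, a kinase induced by glucocorticoids in many cells, fell from 42.3, 44.4 and 48.5 to 34.9, 34.2 and 37.6 CPM (log2 fold change -0.35 ± 0.07, adjusted p = 0.0108). Of 18 clock genes 4 rose (2 with WT viable 2 or WT necrotic 2 left out), among them Per1 and Dbp (46.2, 45.5 and 47.2 to 58.7, 66.1 and 56.1 CPM, log2 fold change 0.38 ± 0.08, adjusted p = 0.00746), and all libraries were labelled with the same harvest day but no hour. Tsc22d3, Fkbp5, Per1, Cd163 and Dbp passed in every fit with 1 WT library left out. Sgk1 did not pass without WT viable 3 or WT necrotic 2 (adjusted p 0.0554 to 0.0625).

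Receptors for extracellular nucleotides, which dying cells release, had a few rises. P2ry12, an ADP receptor, rose from 9.6, 8.82 and 9.87 to 13.3, 15.2 and 13.2 CPM (log2 fold change 0.55 ± 0.09, adjusted p = 0.00272) as 1 of 4 risen genes among 19 purinergic receptors and ectonucleotidases, a count that was 1 with WT viable 2 or WT necrotic 2 left out and 2 with WT viable 3 left out. The largest fold changes upward belonged to Cd300ld3, a paired immune receptor, at 0.697, 1.05 and 0.618 CPM with viable and 5.12, 1.62 and 3.86 CPM with necrotic supernatant (log2 fold change 2.24 ± 0.53, adjusted p = 0.0172), and Saa3, an acute-phase apolipoprotein, at 1.61, 1.52 and 3.37 CPM with viable and 16.7, 5.02 and 8.46 CPM with necrotic supernatant (log2 fold change 2.06 ± 0.36, adjusted p = 0.0034). Both varied more than 3-fold among the necrotic libraries, with WT necrotic 1 the highest. Gga2, a Golgi sorting adaptor, rose by 0.38 ± 0.04 log2 units and Rufy4, a lysosome-positioning protein, by 0.49 ± 0.05 log2 units, both with little spread. Among the genes with the largest gain in CPM, Lyz2, lysozyme, rose from 17000, 14800 and 15400 to 18200, 17700 and 17600 CPM (log2 fold change 0.18 ± 0.05, adjusted p = 0.023), Apoe from 3010, 2310 and 2810 to 4310, 3430 and 3220 CPM (log2 fold change 0.43 ± 0.11, adjusted p = 0.0269) and Selenop, a selenium carrier, by 0.46 ± 0.07 log2 units. P2ry12, Saa3, Gga2, Rufy4 and Selenop passed in every fit with 1 WT library left out. Cd300ld3 did not pass without WT viable 2, WT viable 3 or WT necrotic 1 (adjusted p 0.0504 to 0.0914). Lyz2 and Apoe did not pass without WT viable 2, WT viable 3, WT necrotic 1 or WT necrotic 2 (adjusted p 0.0538 to 0.139).

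Nuclear-encoded genes of mitochondrial energy metabolism shifted upward by small steps. Of 77 respiratory chain genes 28 rose and the other 49 did not pass, with a median of 0.154, and of 32 genes of pyruvate entry and the TCA cycle 12 rose (median 0.144). Of 23 fatty acid oxidation genes 9 rose (median 0.152), and of 36 genes of NRF2 and thiol metabolism 10 rose (median 0.127). Sdhd, a membrane anchor of succinate dehydrogenase, was at 257, 254 and 255 CPM with viable and 288, 312 and 309 CPM with necrotic supernatant (log2 fold change 0.25 ± 0.04, adjusted p = 0.0034). Mdh2, mitochondrial malate dehydrogenase, rose from 479, 463 and 475 to 562, 589 and 572 CPM (log2 fold change 0.28 ± 0.05, adjusted p = 0.00453), and Atp5b, the catalytic ATP synthase subunit, by 0.21 ± 0.04 log2 units. Acads, which oxidises short-chain acyl-CoA, rose by 0.31 ± 0.06 log2 units and Prdx6, a peroxiredoxin, by 0.25 ± 0.05 log2 units. No necrotic library of these 5 genes was below a viable one. Sdhd, Mdh2, Atp5b, Acads and Prdx6 passed in every fit with 1 WT library left out.

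The size of these shifts depended on single libraries. The respiratory chain count was 46 with WT viable 1 left out, 5 with WT viable 2 left out, 11 with WT viable 3 left out and 8 with WT necrotic 2 left out. The TCA cycle count was 5 with WT viable 2 left out and 6 with WT necrotic 2 left out, the fatty acid oxidation count was 2 with WT viable 2 left out, 4 with WT viable 3 left out and 3 with WT necrotic 2 left out, and the NRF2 and thiol count was 2 with WT viable 2 left out, 6 with WT viable 3 left out and 3 with WT necrotic 2 left out. Of the mitochondrial ribosome 5 of 49 genes rose and of mitochondrial import 4 of 32, beside 4.81% of all genes, with 0 to 10 and 0 to 7 rises when 1 WT library was left out. The genes of the mitochondrial genome gave no call among 14 tested (edgeR), with 2 higher and 1 lower at an unadjusted p under 0.05, 0 calls by DESeq2 and 1 higher by limma voom; without WT necrotic 1, 4 were lower. Ppargc1b, a regulator of mitochondrial number in osteoclasts, was at 22.5, 31.5 and 30.3 CPM with viable and 32.7, 28 and 30.6 CPM with necrotic supernatant, with an adjusted p of 0.579.

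Transcript length moved with the response and is given beside these small shifts for that reason. With the genes split into 4 equal parts by annotated transcript length, the median log2 fold change was 0.035 for 56 to 1883 bases, 0.031 for 1884 to 3107, -0.003 for 3108 to 4583 and -0.076 for 4584 to 123179 bases. The shortest part held 189 rises and 46 falls, the longest 100 rises and 337 falls. With offsets for length and GC content the medians were 0.013, -0.003, -0.01 and -0.022, and the calls 181 rises and 67 falls in the shortest and 202 rises and 246 falls in the longest part. Under those offsets 34 of the 77 respiratory chain genes rose and 16 of the 22 proton pump genes. Other counts became smaller: lysosomal rises went from 15 to 12, NRF2 and thiol rises from 10 to 8 and collagen and matrix falls from 8 to 5. Falls of mitosis genes went from 14 to 17 and those of antiviral effectors from 12 to 14.

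Lpl, lipoprotein lipase, which frees fatty acids from lipoproteins, had the smallest p of all falling genes, at 2590, 2640 and 2510 CPM with viable and 1940, 1830 and 1890 CPM with necrotic supernatant (log2 fold change -0.45 ± 0.04, adjusted p = 2.38e-05). Plin2, the coat protein of lipid droplets, fell from 287, 296 and 281 to 242, 243 and 241 CPM (log2 fold change -0.25 ± 0.04, adjusted p = 0.002). Each was lower in all 3 necrotic libraries. Nr1h3, the oxysterol receptor LXR alpha, rose from 24.5, 20.6 and 22.5 to 28.3, 28.6 and 31.3 CPM (log2 fold change 0.39 ± 0.09, adjusted p = 0.012). In the list of 30 LXR, PPAR gamma and lipoprotein genes 6 fell and 2 rose (median -0.06, with 4 to 8 falls and 0 to 4 rises when 1 WT library was left out), and of 25 sterol synthesis genes 1 rose and 1 fell (0 to 1 rises and 1 to 4 falls). Lpl and Plin2 passed in every fit with 1 WT library left out. Nr1h3 did not pass without WT viable 2 (adjusted p = 0.0713).

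**Figure D4:**
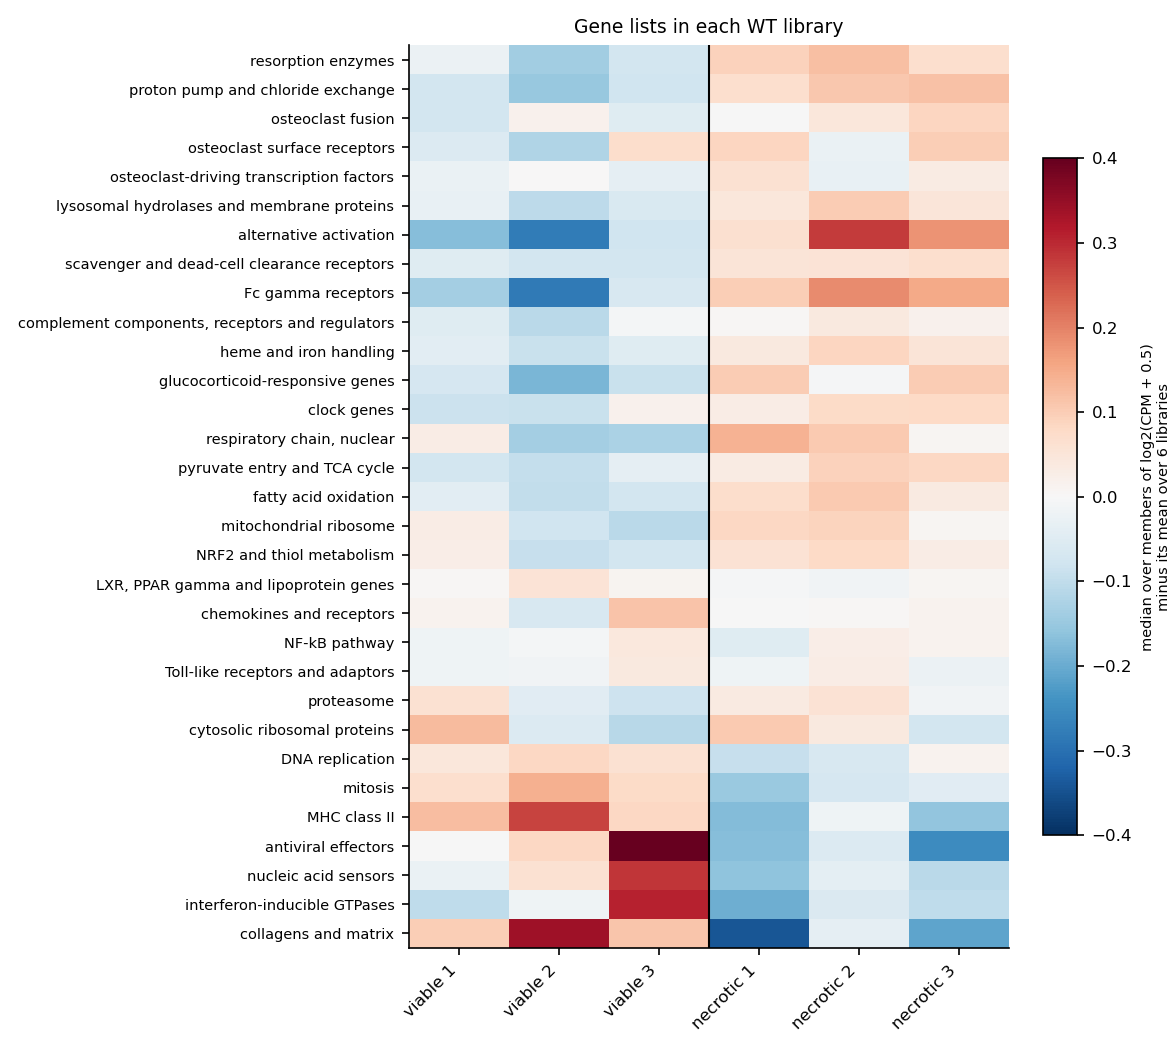
Rows are the same 31 gene lists, columns the 6 WT libraries, and colour is the median over members of log2(CPM + 0.5) minus its mean over the 6 libraries, red above and blue below, with the colours ending at ±0.4. Proton pump and resorption rows are blue in all viable and red in all necrotic libraries, whereas the antiviral, sensor and GTPase rows are darkest in WT viable 3, where the antiviral median deviation was 0.454.

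Many interferon-induced genes fell. Of 35 tested antiviral effectors 12 fell and the other 23 did not pass, with a median log2 fold change of -0.444, and in 20 of the 35 all necrotic libraries lay below all viable ones (12% of all genes did). Oas3 (chr5:120753098-120777661, minus strand), an oligoadenylate synthetase that responds to double-stranded RNA, was at 53.3, 68.8 and 84.6 CPM with viable and 43, 43.8 and 39.3 CPM with necrotic supernatant (log2 fold change -0.73 ± 0.15, adjusted p = 0.00759). Usp18, the brake on interferon receptor signalling, was at 10.5, 13.5 and 17.4 CPM with viable and 6.98, 8.53 and 7.63 CPM with necrotic supernatant (log2 fold change -0.87 ± 0.15, adjusted p = 0.003). Oas2 went from 75, 78.4 and 101 to 58.8, 62.3 and 58.8 CPM (log2 fold change -0.51 ± 0.10, adjusted p = 0.00732) and Mx1 from 14.1, 14.8 and 22 to 10.4, 11.5 and 9.91 CPM (log2 fold change -0.72 ± 0.17, adjusted p = 0.0158). WT viable 3 was the highest library for each of these 4 genes, and no necrotic library reached the lowest viable one. Of 17 interferon signalling genes 3 fell (1 with WT viable 2, WT viable 3, WT necrotic 2 or WT necrotic 3 left out): Stat2, a transcription factor of the type I interferon response (56.8, 59.4 and 64.8 to 43.3, 49.8 and 44.8 CPM, log2 fold change -0.40 ± 0.07, adjusted p = 0.00495), Irf7 (51, 52.1 and 76.6 to 44.4, 45 and 34.5 CPM, log2 fold change -0.56 ± 0.16, adjusted p = 0.0364) and Irf9 (-0.21 ± 0.06 log2 units). Oas3, Usp18, Oas2 and Stat2 passed in every fit with 1 WT library left out. Mx1 did not pass without WT viable 3 (adjusted p = 0.0951). Irf7 did not pass without WT viable 2, WT viable 3, WT necrotic 2 or WT necrotic 3 (adjusted p 0.0553 to 0.205). Irf9 did not pass without WT viable 2, WT viable 3, WT necrotic 1, WT necrotic 2 or WT necrotic 3 (adjusted p 0.062 to 0.242).

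The size of this fall depended on WT viable 3. The median deviation of the antiviral list in the viable libraries 1, 2 and 3 was -0.001, 0.084 and 0.454 on the log2 scale, against -0.171, -0.056 and -0.253 in the necrotic ones. The count of falls was 23 with WT viable 1 left out, 3 with WT viable 3 left out, 7 with WT necrotic 1 or WT necrotic 3 left out and 6 with WT necrotic 2 left out, and without WT viable 3 the median of the list was -0.184. Nucleic acid sensors (4 of 20 fell, median -0.232) and interferon-inducible GTPases (4 of 15 fell, median -0.226) had the same library on top. Their counts were 8 with WT viable 1 left out, 2 with WT viable 2 left out and 1 with WT viable 3 or WT necrotic 1 left out for the sensors and 1 with WT viable 2, WT viable 3 or WT necrotic 1 left out and 2 with WT necrotic 2 left out for the GTPases. Cgas, the sensor of cytosolic DNA, fell from 16.2, 18.3 and 19.5 to 13.1, 11.3 and 12.6 CPM (log2 fold change -0.56 ± 0.11, adjusted p = 0.00759), Gbp4, a guanylate-binding protein, from 1.77, 1.23 and 1.65 to 0.679, 0.335 and 0.746 CPM (log2 fold change -1.39 ± 0.27, adjusted p = 0.00705), and Ddx58, the RNA sensor RIG-I, by 0.38 on the log2 scale. Cgas and Gbp4 passed in every fit with 1 WT library left out. Ddx58 did not pass without WT viable 3 or WT necrotic 1 (adjusted p 0.0502 to 0.0915).

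Promoters of 2 of these genes are shown because the list is defined by response to interferon, which acts through the interferon-stimulated response element. Capitals mark its core, GAAA and a second GAAA with any 2 bases between them, on either strand, in windows from 250 bases before to 50 after the RefSeq start (GRCm38.p6): Oas3 at chr5:120777610-120777909 on the minus strand, with the core at base 176, and Stat2 at chr10:128270248-128270547 on the plus strand, with the reverse core at base 29.
Oas3: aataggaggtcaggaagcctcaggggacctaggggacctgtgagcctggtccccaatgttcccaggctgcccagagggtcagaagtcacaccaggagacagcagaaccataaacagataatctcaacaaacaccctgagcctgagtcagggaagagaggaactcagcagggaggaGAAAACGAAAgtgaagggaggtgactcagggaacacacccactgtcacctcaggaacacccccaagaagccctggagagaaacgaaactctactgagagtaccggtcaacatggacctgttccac
Stat2: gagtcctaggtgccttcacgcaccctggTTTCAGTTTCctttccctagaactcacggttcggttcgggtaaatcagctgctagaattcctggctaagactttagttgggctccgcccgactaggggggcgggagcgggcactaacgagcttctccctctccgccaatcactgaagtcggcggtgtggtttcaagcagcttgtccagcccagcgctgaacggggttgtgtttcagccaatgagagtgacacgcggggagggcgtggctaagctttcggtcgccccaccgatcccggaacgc
The core was found in 16 of 27 antiviral genes with a promoter in the table (59.3%), 8 of 16 sensors (50.0%), 8 of 9 GTPases (88.9%) and 3 of 16 interferon signalling genes (18.8%), against 398 of 10156 genes tested (3.92%). The window of Irf7, which also fell, did not hold it. It was in 30 of 491 genes that fell (6.11%) and 15 of 519 that rose (2.89%). Antiviral genes with the core (3 of 16 fell, median -0.39) and without it (4 of 11 fell, median -0.33) are given for description only.

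MHC class II genes, which present antigen and are carried by dendritic cells and activated macrophages, fell in part. Of 13 tested, 5 fell (median -0.386), and 4 to 5 fell in each leave-one-out fit. The beta chain gene H2-Eb1 (chr17:34305867-34316674, plus strand) was at 61.1, 61.7 and 53.5 CPM with viable and 38.8, 41.8 and 31.9 CPM with necrotic supernatant (log2 fold change -0.65 ± 0.09, adjusted p = 0.000631). H2-Aa was at 66.9, 70.7 and 64.2 CPM with viable and 40.7, 51.7 and 38.9 CPM with necrotic supernatant (log2 fold change -0.62 ± 0.09, adjusted p = 0.000841) and H2-Ab1 went from 62.1, 67 and 58.5 to 40.9, 48.4 and 38.6 CPM (log2 fold change -0.55 ± 0.08, adjusted p = 0.000873). For all 3 chains the highest necrotic library, WT necrotic 2, stayed below the lowest viable one. Ciita, the transactivator of this gene class, fell from 9.01, 10.7 and 11.3 to 7.66, 7.14 and 7.21 CPM (log2 fold change -0.51 ± 0.11, adjusted p = 0.0103), and the invariant chain Cd74 from 206, 205 and 178 to 140, 169 and 135 CPM (log2 fold change -0.40 ± 0.09, adjusted p = 0.0108). Cd209a, a C-type lectin of monocyte-derived dendritic cells, fell from 3.11, 3.5 and 2.63 to 0.803, 1 and 1.33 CPM (log2 fold change -1.49 ± 0.24, adjusted p = 0.00181). Dendritic cell markers, of which 2 of 11 tested fell, summed to 46.7 to 50.3 CPM with viable and 37.5 to 40.4 CPM with necrotic supernatant, and their part in the fall was not tested. H2-Eb1, H2-Aa, H2-Ab1 and Cd209a passed in every fit with 1 WT library left out. Ciita did not pass without WT viable 3 (adjusted p = 0.0606). Cd74 did not pass without WT viable 2 (adjusted p = 0.0585).

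The class II promoters of H2-Eb1 (chr17:34305617-34305916, plus strand) and H2-Aa (chr17:34287774-34288073, minus strand) are shown because both genes moved together and share the Y box, bound by NF-Y. Its letters CTGATTGG are in capitals, at base 189 and base 200 of the same kind of window in GRCm38.p6.
H2-Eb1: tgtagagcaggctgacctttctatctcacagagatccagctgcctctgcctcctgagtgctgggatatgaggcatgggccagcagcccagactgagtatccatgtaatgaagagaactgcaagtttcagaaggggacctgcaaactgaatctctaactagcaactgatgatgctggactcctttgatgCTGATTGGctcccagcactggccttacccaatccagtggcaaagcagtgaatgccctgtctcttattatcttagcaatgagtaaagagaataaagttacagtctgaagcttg
H2-Aa: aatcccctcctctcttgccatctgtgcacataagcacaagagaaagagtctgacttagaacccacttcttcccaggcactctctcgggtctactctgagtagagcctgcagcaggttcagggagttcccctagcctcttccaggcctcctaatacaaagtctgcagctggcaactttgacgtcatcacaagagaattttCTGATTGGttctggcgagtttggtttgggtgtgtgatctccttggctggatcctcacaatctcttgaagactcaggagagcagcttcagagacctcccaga
CTGATTGG on either strand was in 3 of 9 class II genes with a promoter in the table (33.3%), in 7 of 18 MHC class I and antigen processing genes (38.9%) and in 665 genes tested (6.55%). Over the gene lists the share went from 0.0% (proton pump) to 38.9%, with 38.5% of tRNA synthetase and amino acid response genes and 34.8% of chaperones. Of the 22 class I genes tested 2 fell and 1 rose, with 0 to 3 falls and 0 to 3 rises when 1 WT library was left out.

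Chemokine receptors moved in both directions. Cx3cr1, the fractalkine receptor, dropped from 37.2, 41.6 and 32.2 to 19.7, 22.8 and 21.8 CPM (log2 fold change -0.77 ± 0.10, adjusted p = 0.000615). Ccr2, the monocyte receptor for CCL2, fell from 302, 334 and 308 to 208, 261 and 229 CPM (log2 fold change -0.43 ± 0.07, adjusted p = 0.0019). Ccr1, which osteoclasts are known to use, rose from 149, 142 and 167 to 204, 210 and 213 CPM (log2 fold change 0.45 ± 0.06, adjusted p = 0.000631). In all 3 genes the groups did not overlap. Ccl24, an eosinophil attractant of alternatively activated macrophages, rose by 0.58 ± 0.13 log2 units, and Ccr3 by 0.46 ± 0.12 log2 units. Of 25 chemokines and receptors 3 rose and 3 fell, and the count of rises was 1 with WT viable 2 left out. Cx3cr1, Ccr2 and Ccr1 passed in every fit with 1 WT library left out. Ccl24 did not pass without WT viable 2 (adjusted p = 0.0697). Ccr3 did not pass without WT viable 1, WT viable 2, WT necrotic 2 or WT necrotic 3 (adjusted p 0.0519 to 0.105).

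Some cell-cycle transcripts fell, by small steps. All 32 mitosis genes had a log2 fold change below 0 (median -0.192), and 14 of them fell; of 34 DNA replication genes 7 fell (median -0.12). Top2a, topoisomerase II alpha, was at 364, 390 and 369 CPM with viable and 309, 322 and 325 CPM with necrotic supernatant (log2 fold change -0.23 ± 0.05, adjusted p = 0.00838). Uhrf1, which guides DNA methylation at replication forks, fell from 81.9, 92.3 and 91.5 to 70.6, 58.5 and 66.3 CPM (log2 fold change -0.45 ± 0.07, adjusted p = 0.00184), and Dna2, a replication nuclease, from 38.5, 42.5 and 37.8 to 27.3, 28.1 and 28.3 CPM (log2 fold change -0.50 ± 0.06, adjusted p = 0.000372). Hmga1, a chromatin protein of dividing cells, fell from 184, 204 and 198 to 153, 144 and 152 CPM (log2 fold change -0.38 ± 0.05, adjusted p = 0.000359). The groups did not overlap in these 4 genes. The mitosis count was 2 with WT viable 2 left out, 8 with WT viable 3 or WT necrotic 1 left out and 7 with WT necrotic 2 left out, the DNA replication count was 2 with WT viable 2 or WT necrotic 2 left out and 3 with WT viable 3 left out, and in a fit of the 6 WT libraries alone no mitosis gene passed (24 of 32 were lower at an unadjusted p under 0.05 with all 12 libraries, and DESeq2 and limma voom called 16 and 14). Uhrf1, Dna2 and Hmga1 passed in every fit with 1 WT library left out. Top2a did not pass without WT viable 2 (adjusted p = 0.0535).

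Collagens and other matrix genes had some of the deepest falls, at few counts. Of 31 tested 8 fell and 2 rose (median -0.464). Tnc, the matrix glycoprotein tenascin C, went from 9.44, 8.76 and 5.4 to 2.41, 3.79 and 3.4 CPM (log2 fold change -1.25 ± 0.29, adjusted p = 0.0149), Col1a2, a type I collagen chain, from 29.3, 34.5 and 23.7 to 11.1, 17 and 13.2 CPM (log2 fold change -1.07 ± 0.30, adjusted p = 0.0382), and Col3a1 from 9.01, 10.6 and 9.07 to 4.32, 4.91 and 4.68 CPM (log2 fold change -1.03 ± 0.30, adjusted p = 0.04). Ecm1, a secreted matrix protein, rose from 134, 115 and 110 to 150, 157 and 146 CPM (log2 fold change 0.34 ± 0.06, adjusted p = 0.00382), and Dcn, decorin, from 0.215, 0.409 and 0.12 to 0.803, 0.892 and 0.746 CPM (log2 fold change 1.95 ± 0.40, adjusted p = 0.00864). None of the 5 overlapped between groups. The count of falls was 0 with WT viable 2 left out, 2 with WT viable 3, WT necrotic 1 or WT necrotic 2 left out and 4 with WT necrotic 3 left out. Stromal and osteoblast markers, of which 1 of 9 tested rose and 3 fell, summed to 62.9 to 96.5 CPM with viable and 33.1 to 50.9 CPM with necrotic supernatant; the part of a difference in stromal RNA was not tested. Col4a5, a basement membrane collagen, fell from 39.1, 47.3 and 45.8 to 30.9, 25 and 31.3 CPM (log2 fold change -0.60 ± 0.08, adjusted p = 0.000739). Ecm1 and Col4a5 passed in every fit with 1 WT library left out. Tnc did not pass without WT viable 2 (adjusted p = 0.0697). Col1a2 and Col3a1 did not pass without WT viable 2, WT viable 3, WT necrotic 1, WT necrotic 2 or WT necrotic 3 (adjusted p 0.0507 to 0.149). Dcn did not pass without WT viable 3 (adjusted p = 0.0848).

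Among the other leading falls, Dmkn, dermokine, was at 19.3, 19.9 and 18.5 CPM with viable and 7.9, 7.47 and 11.2 CPM with necrotic supernatant (log2 fold change -1.09 ± 0.14, adjusted p = 0.000359). Zbtb32, a transcriptional repressor of lymphocytes, fell from 4.02, 5.26 and 4.76 to 1.79, 1.62 and 2.11 CPM (log2 fold change -1.33 ± 0.17, adjusted p = 0.000359), and L1cam, an adhesion molecule, from 26.4, 30.3 and 29.9 to 17.7, 14.8 and 19.6 CPM (log2 fold change -0.73 ± 0.09, adjusted p = 0.000359). Pgf, placental growth factor, was lower at 1.54, 1 and 1.29 CPM against 2.47, 3.09 and 3.15 CPM (log2 fold change -1.20 ± 0.24, adjusted p = 0.00765). All 4 were lower in every necrotic library, which the rule for naming leading genes required. Slc4a7, a sodium bicarbonate cotransporter used by osteoclasts, fell from 134, 169 and 167 to 103, 92.8 and 115 CPM (log2 fold change -0.60 ± 0.08, adjusted p = 0.00067), and Ahnak, a large scaffold protein, from 1150, 1250 and 1280 to 909, 870 and 990 CPM (log2 fold change -0.41 ± 0.05, adjusted p = 0.000531). The stress factor Atf3 fell by 0.32 on the log2 scale, as did the necroptosis kinase Ripk3 by 0.30 and the inflammasome sensor Nlrp1b by 0.50. Igha, an immunoglobulin heavy chain gene, fell from 1.88, 1.52 and 2.97 to 0.617, 0.446 and 0.58 CPM (log2 fold change -2.04 ± 0.38, adjusted p = 0.00526); its counts can be affected by near-identical gene segments. Lymphoid markers, of which 3 of 8 tested fell, summed to 63.3 to 70.5 CPM with viable and 46.6 to 64.0 CPM with necrotic supernatant, and their part in this fall was not tested. Dmkn, Zbtb32, L1cam, Pgf, Slc4a7, Ahnak, Atf3, Ripk3, Nlrp1b and Igha passed in every fit with 1 WT library left out.

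Lists of classical danger signalling are given by their counts, beside the 4.81% of all genes that rose and the 4.5% that fell. Of 22 NF-kB pathway genes 1 rose and 2 fell, of 22 Toll-like receptors and adaptors 2 fell, of 16 inflammatory mediators 1 rose and 1 fell, and of 22 immediate early genes 2 fell. The glycolysis and hypoxia list had 1 fall in 31 and the p53 and cell death list 3 falls in 24. Proteasome genes (31) and cytosolic ribosomal protein genes (40) gave no call by edgeR, with 6 and 3 higher at an unadjusted p under 0.05; DESeq2 called 0 and 2, and limma voom 0 and 1, and without WT viable 1 edgeR called 5 higher in each list. Most of the counts in this paragraph moved by over 1.5 times when 1 WT library was left out, with 0 to 3 falls in each of the NF-kB, Toll-like receptor and glycolysis lists. Clec4e, which encodes Mincle, was at 22.8, 23.7 and 26.1 CPM with viable and 27.8, 21.9 and 25.4 CPM with necrotic supernatant (log2 fold change 0.04 ± 0.11, adjusted p = 0.853), so the groups overlapped.

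The remaining lists are given by their counts, beside the 4.81% of all genes that rose and the 4.5% that fell. Some were close to these shares, such as coupling and guidance factors (6.5% rose and 6.5% fell) and chaperones (6.9% and 6.9%). Of 31 osteoclast coupling and guidance factors 2 rose and 2 fell, with Pdgfb, a growth factor that osteoclast precursors send to vessels, up from 123, 120 and 125 to 143, 136 and 146 CPM (log2 fold change 0.21 ± 0.04, adjusted p = 0.00732). Of 18 C-type lectins 5 rose and 2 fell, of 25 inhibitory and paired receptors 1 rose and 2 fell, and of 38 cytokine and growth factor receptors 3 rose and 4 fell. Il4ra, the receptor chain for IL-4, rose from 64.7, 62 and 63.7 to 74, 85.2 and 79.3 CPM (log2 fold change 0.32 ± 0.06, adjusted p = 0.00574), and Il7r fell by 0.57 on the log2 scale. Of 15 Notch pathway genes 3 rose and 3 fell, of 24 TGF beta and Wnt genes 3 rose and 1 fell, of 7 VEGF family genes 1 rose and 2 fell, and of 22 prostaglandin and leukotriene genes 2 rose and 2 fell. Autophagy had 3 rises in 28 genes, transporters 7 rises and 2 falls in 29, chaperones 2 rises and 2 falls in 29, tRNA synthetase and amino acid response genes 3 falls in 35 and serum response factor targets 1 fall in 21. The 12 tested genes of mitochondrial biogenesis gave no call by edgeR, DESeq2 or limma voom, with 1 higher and 1 lower at an unadjusted p under 0.05. Leaving out 1 WT library gave 0 to 6 rises among the transporters, 2 to 6 among the C-type lectins and 0 to 5 in autophagy, and each of the other lists with a call in this paragraph had a count that moved by over 1.5 times in at least 1 such fit. Pdgfb, Il4ra and Il7r passed in every fit with 1 WT library left out.

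The WT changes were then set beside the same contrast in KO cells, whose fold changes come from 6 other libraries. The tests of both contrasts took their spread from the same model of all 12 libraries. Of the 681 genes that rose in WT, 647 (95.0%) were also higher in KO and 289 (42.4%) passed there; of the 637 that fell, 605 (95.0%) were also lower and 215 (33.8%) passed. Among the 12835 genes that did not pass in WT, 65.0% had the same direction in KO and 3.93% passed there in that direction. No WT change passed in the opposite direction in KO, against 41 opposite and 505 same-direction calls among those other genes. The median log2 fold change of the risen genes was 0.26 in WT and 0.19 in KO, and of the fallen ones -0.33 and -0.21. The WT values chose the genes, so these medians are a description. Cd38 had a log2 fold change of 1.82 in WT and 1.60 in KO, Cd55 1.02 and 0.99, Acp5 0.51 and 0.39, Calcr 0.59 and 0.61, Lpl -0.45 and -0.39, and Oas3 -0.73 and -0.86.

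**Figure D5:**
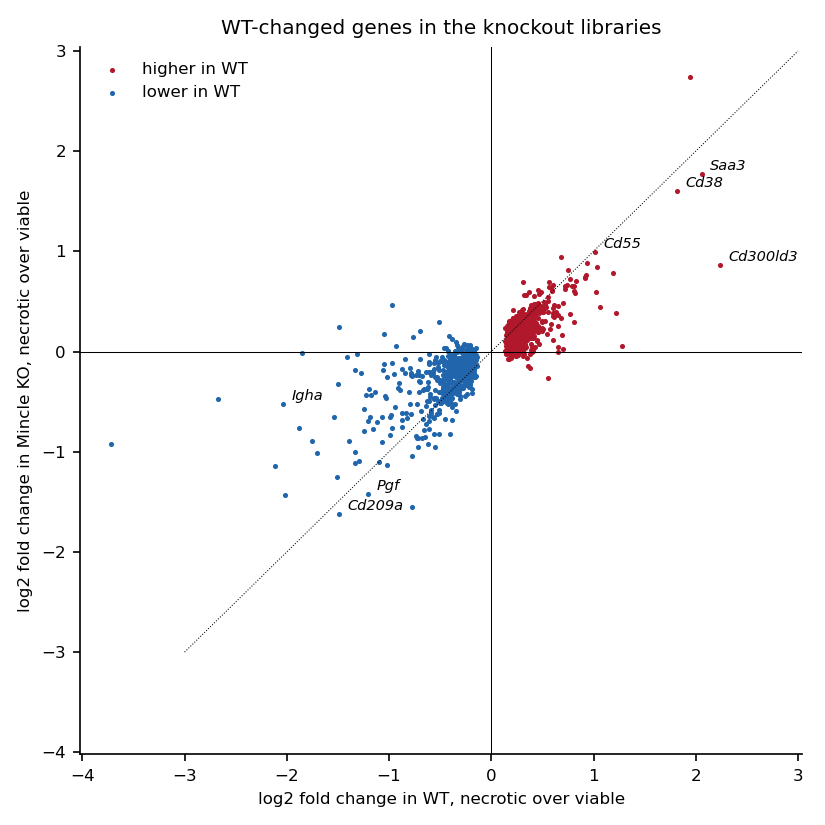
Each point is a gene that changed in WT, with its log2 fold change in WT on the x axis and in KO on the y axis (necrotic over viable), red for rises and blue for falls; the dotted line marks equal changes. Of the red points 95.0% lie above 0 on the y axis, and of the blue points 95.0% lie below 0.

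No gene passed a test of the difference between the KO and WT responses by edgeR (0 of 14153), and neither DESeq2 nor limma voom called one; 1064 genes (7.52%) had an unadjusted p under 0.05. Among the genes changed in WT, the inhibitory Fc receptor Fcgr2b had the smallest unadjusted p of the difference, with log2 fold changes of 0.27 in WT and -0.02 in KO (unadjusted p = 0.000725, adjusted p = 0.571). Fcgr3 had 0.45 in WT and 0.12 in KO (unadjusted p = 0.00196, adjusted p = 0.571), and the class II gene H2-Ab1 -0.55 and -0.96 (unadjusted p = 0.00239, adjusted p = 0.571). A p that misses the threshold does not show that the responses were alike.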

How the data were processed

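Messenger RNA of osteoclast cultures was sequenced as paired-end libraries made with a NEBNext Ultra kit from 1 µg of total RNA, per the labels' protocols. The authors deposited unnormalised counts of reads for 46983 Ensembl identifiers in each of the 12 libraries. The submitters' processing notes name CASAVA, HISAT2 2.0.5, HTSeq 0.6.1 and the GRCm38 build. How strand and multi-mapping reads were handled, and which annotation was counted, is not given in the sources used here. Genes that overlap on opposite strands, and families with near-identical copies such as the Oas, Fc gamma receptor, guanylate-binding, Cd300 and MHC genes, are therefore uncertain. Groups and replicate numbers came from the sample titles.

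GENCODE M21 (GRCm38) gave symbols and positions for 46488 of the identifiers, leaving 495 without a match, and RefSeq on GRCm38.p6 gave promoters. In R 4.3.3 with edgeR 4.0.16, filterByExpr left 14153 genes, at least 99.9% of the counts of each WT library. TMM scaling (factors 0.971 to 1.02) and 1 model with 4 group means over all 12 libraries (8 residual degrees of freedom, common biological variation 7.18%) gave 2-sided quasi-likelihood tests, adjusted by Benjamini and Hochberg over all genes with a threshold of 0.05. CPM values are scaled by TMM. A count of 0 allows up to 3 counts, 0.0605 to 0.183 CPM by library, for counting error only. On data simulated for the comparison of WT necrotic with WT viable, over 14011 genes, the test found 83% of 100 genes changed by a log2 fold change of 0.5 and 98% of 100 changed by 1, with 9 false calls. The changed genes were drawn from those over 5 CPM, so these shares do not cover genes with fewer counts or smaller changes. The simulated libraries also lacked shifts shared by many genes of 1 library.

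The comparison and the 60 gene lists were chosen with earlier results of these data known, so a list's counts are descriptions. Named genes are Clec4e, the members of the marker lists, up to 6 genes of every list, taken by smallest p, and, among called genes whose groups do not overlap and that are not predicted names, the 12 with the smallest p (at least 5 CPM), the 10 with the largest fold change (at least 1 CPM) and the 10 with the largest CPM difference in each direction. Alternatives were DESeq2 1.42.0, limma 3.58.1 (voom), other scalings and filters, the WT libraries alone, a replicate block, offsets for length and GC content, thinning of the deepest library, a minimum fold change, and leaving out each WT library.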

Additional observations from a re-analysis of the deposited data

How the results depend on the processing

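The counts of 681 rises and 637 falls kept within 1.5 times under median-ratio and upper-quartile scaling, DESeq2, limma voom, a filter of 5 CPM in 3 libraries, the thinned deepest library and the offsets for length and GC content. Without a filter on low counts there were 802 rises and 1027 falls, and 209 genes passed for a different response in KO. The 6 WT libraries alone gave 213 rises and 146 falls, of which 212 and 141 were among the main calls. A test against a minimum of 1.2-fold (glmTreat) gave 28 rises and 16 falls. Leaving out 1 WT library gave 209 to 939 rises, 176 to 1076 falls and 0 genes with a different response each time. With the replicate number as a block there were 610 rises and 621 falls; same-numbered WT libraries had correlations of their deviations across genes of -0.013, 0.035 and 0.075, so the numbers were not taken to pair the samples. Low counts limit what can be seen: 25 of 1656 genes under 1 CPM passed.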

Other observations

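Genes of neutrophil granules, which are made by myeloid precursors that can persist in marrow cultures, moved in both directions. Of 14 neutrophil and precursor markers 2 rose and 3 fell, and the summed level of the list was 1580 to 1660 CPM with viable and 1420 to 1650 CPM with necrotic supernatant. Elane, neutrophil elastase, was at 46.4, 40.9 and 41.3 CPM with viable and 55.1, 65.1 and 49.9 CPM with necrotic supernatant (log2 fold change 0.40 ± 0.09, adjusted p = 0.0144), and Mmp8, neutrophil collagenase, at 209, 189 and 183 CPM with viable and 299, 250 and 211 CPM with necrotic supernatant (log2 fold change 0.39 ± 0.09, adjusted p = 0.0155). The granule proteins Ltf, lactoferrin (153, 161 and 166 to 112, 142 and 131 CPM, log2 fold change -0.32 ± 0.07, adjusted p = 0.0116), Camp, the cathelicidin (-0.35 ± 0.07 log2 units), and Ngp (-0.18 ± 0.05 log2 units) fell. The groups did not overlap in any of the 5 genes. Camp passed in every fit with 1 WT library left out. Elane did not pass without WT viable 2, WT viable 3 or WT necrotic 2 (adjusted p 0.0621 to 0.0765). Mmp8 and Ltf did not pass without WT viable 2 or WT viable 3 (adjusted p 0.0521 to 0.0725). Ngp did not pass without WT viable 2, WT viable 3, WT necrotic 1 or WT necrotic 3 (adjusted p 0.0746 to 0.092).

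Mast cell and basophil markers summed to 13.7 to 14.6 CPM with viable and 15.9 to 19.0 CPM with necrotic supernatant, ranges that did not overlap. These are few counts, and 0 of the 6 members tested passed. Erythroid and platelet markers summed to 337 to 408 and 359 to 492 CPM, and endothelial markers to 26.3 to 29.5 and 25.3 to 28.4 CPM, so the ranges of both overlapped between the groups.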
